A study of Mus musculus with 18 samples.

Results

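The proximal part of T cell receptor signaling was examined in the transcriptomes of splenic regulatory T cells (Tregs) with and without CHD8, a chromodomain helicase that remodels chromatin. It was represented by 9 genes out of 35865 genes listed under a single name. These were the receptor chain genes Cd3e, Cd3d, Cd3g and Cd247, the kinase genes Lck and Zap70, the adaptor genes Lat and Lcp2, and the effector gene Plcg1. They were chosen as the named core of the pathway by a rule that uses no measured value, though with earlier results of these data known, and all 9 were listed and passed the filter on low values. The RNA-seq libraries, 1 per mouse, came from 2 WT and 2 Chd8-/- mice and were made from YFP+ cells sorted out of the CD4+ T cells of the spleen. The ATAC-seq and CHIP-seq of the same study were not analysed here. In Chd8-/- mice a floxed Chd8 gene is deleted by a YFP-Cre fusion expressed from the Foxp3 locus, so that deletion is limited to cells that express, or have expressed, Foxp3. The Chd8-/- libraries carry the genotype label CHD8Flox/FloxFoxp3YFP-Cre. The WT libraries carry CHD8flox/floxFoxp3YFP-Cre/+, homozygous floxed alleles with heterozygous Cre, whereas the study describes WT mice without floxed Chd8. In the study, YFP+ Tregs of mice with that labelled genotype are described as deficient in CHD8. Taken literally, the label thus conflicts with the contrast between genotypes. The grouping by sample title and by the study was used. All 4 libraries share the treatment label Poly IC injection, which the methods of the study do not describe. The mice were 5 to 7 weeks old per the methods. The study reports early, fatal inflammation and enlarged spleens in Chd8-/- mice. Genotype and this disease state therefore cannot be told apart in these libraries.

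The T cell receptor has no enzyme of its own. Its antigen-binding chains are carried to the surface and linked to the cell interior by the CD3ε, CD3δ and CD3γ chains and by a dimer of the ζ chain, encoded by Cd247, whose cytoplasmic tyrosine motifs are phosphorylated by the Src family kinase LCK. The kinase ZAP70 binds the phosphorylated motifs and phosphorylates the membrane adaptor LAT and the cytosolic adaptor SLP76, encoded by Lcp2, and the complex on LAT recruits and activates phospholipase Cγ1, encoded by Plcg1, which starts the calcium, protein kinase C and RAS branches. Tregs depend on this signaling for their development in the thymus and for suppressive function.

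The 3 CD3 genes lie in a cluster on chromosome 9 (GRCm38.p6), where Cd3g (minus strand, chr9:44969572-44980431) and Cd3d (plus strand, chr9:44981769-44987052) are transcribed away from each other from starts 1355 bp apart, and Cd3e (minus strand, chr9:44998735-45009663) starts 27825 bp beyond the start of Cd3d. The 250 bases before the starts of Cd3g and Cd3d are shown because the levels of these neighbours had the same order over the Chd8-/- and WT libraries, described below. They are RefSeq sequence of GRCm38.p6 at chr9:44980432-44980681 (minus strand) and chr9:44981536-44981785 (plus strand), written 5′ to 3′ along the strand of the gene, and the last bases of the Cd3d window lie in the first exon of a longer predicted Cd3d transcript. Capitals mark matches on either strand to an Ets motif (AGGAAG), an E-box (CAGNTG) or an NFAT motif (TGGAAA).
Cd3g: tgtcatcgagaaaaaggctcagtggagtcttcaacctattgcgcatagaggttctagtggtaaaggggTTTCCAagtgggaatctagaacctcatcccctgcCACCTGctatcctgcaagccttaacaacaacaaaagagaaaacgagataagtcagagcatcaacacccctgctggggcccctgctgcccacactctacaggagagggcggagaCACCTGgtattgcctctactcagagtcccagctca
Cd3d: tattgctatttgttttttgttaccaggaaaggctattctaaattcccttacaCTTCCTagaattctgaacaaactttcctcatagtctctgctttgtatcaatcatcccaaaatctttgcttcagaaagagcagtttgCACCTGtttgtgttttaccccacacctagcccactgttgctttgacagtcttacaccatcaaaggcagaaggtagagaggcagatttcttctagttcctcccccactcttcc
Each of these windows held at least 1 E-box, the Cd3g window held an NFAT motif, and the Cd3d window held an Ets motif. A Runx motif (TGTGGT) and a TATA box (TATAAA) were searched as well, and neither was found in these 2 windows. Over the windows of all 9 genes, which number 12 because Zap70 and Lck have several starts, 9 windows held the Ets motif, 9 the E-box, 3 the NFAT motif, 2 the Runx motif and 0 the TATA box. Among the 32851 windows of all annotated starts, the share was 29.5% for the Ets motif, 44.8% for the E-box, 18.6% for the NFAT motif, 14.0% for the Runx motif and 12.4% for the TATA box. Such matches describe letters only. The order of levels that Cd3g and Cd3d share was not particular to them. Plcg1, on another chromosome, also had Chd8-/- replicate 1 highest and replicate 2 lowest, and Cd3e of the same cluster did not.

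The remaining genes lie apart from each other. Cd247 spans chr1:165779952-165871153 on the plus strand, and Zap70 chr1:36761798-36782821 on the plus strand. Lck spans chr4:129548344-129573641 on the minus strand and Lat chr7:126363827-126369705 on the minus strand. Lcp2 spans chr11:34046928-34092281 and Plcg1 chr2:160731310-160775760, both on the plus strand. The values of the RNA table are gene totals over exons, given as TPM, a transcript abundance scaled by gene length and library total.

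Chd8 itself was listed at 24.7 and 27.6 TPM in the WT libraries and at 14.9 and 11.4 TPM in the Chd8-/- libraries. It was lower in both Chd8-/- libraries than in both WT libraries, with a log2 fold change of −0.95 (SE 0.29, 2 mice in each group, limma adjusted p = 0.455). The TPM covers the whole gene, not the floxed exons alone, and 654 of its exonic bases overlap the lncRNA gene Gm26590 on the opposite strand. The comparison took in 15240 genes that reached 1 TPM in at least 2 libraries, and they were compared as log2(TPM + 1) with limma (two-sided, Benjamini-Hochberg adjustment over all of them). All fold changes are on that scale, Chd8-/- minus WT, and understate the change of low genes. With 2 libraries on each side, the smallest p-value that an exact permutation test allows is 0.33.

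The libraries differed in their levels of cell type markers. The summed level of 8 myeloid markers was 147.7 and 121.9 TPM in the WT libraries, 33.2 TPM in Chd8-/- replicate 1 and 1490.8 TPM in Chd8-/- replicate 2, in which the lysozyme gene Lyz2 alone made up 1360.3 TPM. The summed level of 5 erythroid markers was 325.3, 310.5, 8.7 and 1629.6 TPM in the same order. Both Chd8-/- libraries stood apart from WT in both sums, replicate 1 below and replicate 2 above. Chd8-/- replicate 2 was not above WT in each of their genes. It held 7.5 TPM of the erythroid gene Alas2, against 15.0 and 21.5 TPM in WT. Its correlation with the WT libraries over genes, which are not replicates, was 0.840 and 0.842, against 0.919 between the WT libraries. Chd8-/- replicate 1 had correlations of 0.897 and 0.902 with the WT libraries and 0.860 with Chd8-/- replicate 2. By this measure replicate 1 was closer to WT than to the other Chd8-/- library. The part of these cells in the results below was not tested, and each result is given per library. Foxp3, the Treg lineage factor, was listed at 202.8 and 215.4 TPM in WT and at 232.1 and 205.3 TPM in Chd8-/- libraries, and Il2ra, the high-affinity IL-2 receptor chain, at 860.5 to 1156.3 TPM. All 5 Treg markers were present in every library, with summed levels of 1631.4 and 1732.7 TPM in WT and 2370.0 and 1751.4 TPM in Chd8-/- Tregs. Of the CD8 T cell markers, Cd8a was near 0 (1.4 to 1.8 TPM) and Cd8b1 was listed at 7.7 to 36.0 TPM. The 7 B cell markers summed to 46.0, 30.5, 36.1 and 140.9 TPM, and the 4 NK cell markers to 3.2 to 8.2 TPM. The 3 platelet markers summed to 0 to 10.9 TPM, and of the gamma delta T cell markers Sox13 was at 0 in all 4 libraries and Trdc has no row. In bulk libraries fewer cells of a type and less RNA per cell cannot be told apart. Ddx3y and Eif2s3y, genes of the Y chromosome, were listed at 0 and Xist at 500.2 to 843.3 TPM in all 4 libraries, whereas the study describes a male and a female mouse per genotype.

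**Figure D1:**
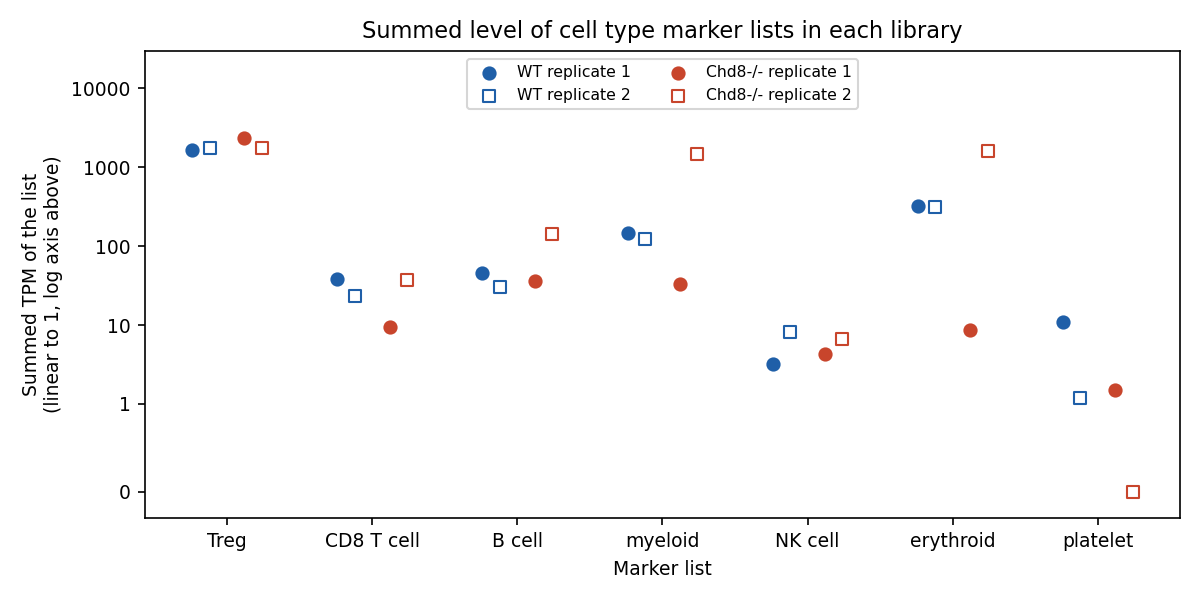
Summed TPM of 7 lists of cell type markers (y axis, linear up to 1 and logarithmic above) in each of the 4 Treg libraries, 1 point per library (blue WT, red Chd8-/-, filled circles replicate 1, open squares replicate 2). The myeloid and erythroid sums of Chd8-/- replicate 2 (1490.8 and 1629.6 TPM) lie above those of the other libraries, and those of Chd8-/- replicate 1 (33.2 and 8.7 TPM) lie below, while the Treg sums lie between 1631.4 and 2370.0 TPM.

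The receptor chain genes covered a wide range of levels, and none of the 4 passed the test between genotypes. Cd3e was the highest of the 9 genes in every library, and Cd247 and Zap70 were the lowest. Among all listed names the mean WT level of Cd3e ranked 85th from the top, and that of Cd3g 141st, while Cd247 ranked 2941st. In per-length units the order in the WT libraries was Cd3e, Cd3g, Lcp2, Cd3d, Lat, Lck, Plcg1, Cd247 and Zap70, and within it Lat and Lck overlapped between the libraries while the other neighbours did not. This order rests on the scaling by length, which assumes even coverage along genes, and the methods name both a 3′ assay and an Illumina kit.

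Cd3e, which encodes the ε chain that pairs with both the δ and the γ chain, was listed at 1547.9 and 1527.6 TPM in WT and at 1309.5 and 1267.2 TPM in Chd8-/- libraries. Both Chd8-/- libraries were lower than both WT libraries, and the means were 1538 ± 14.4 and 1288 ± 29.9 TPM (SD, n = 2). The log2 fold change was −0.26 (SE 0.14, 95% interval −0.62 to 0.11, adjusted p = 0.591 from limma). The difference from the WT mean was −0.23 in Chd8-/- replicate 1 and −0.28 in replicate 2. The part of other cell types in it was not tested.

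Cd3d, encoding the δ chain, was listed at 355.4 and 351.8 TPM in WT and at 505.2 and 338.2 TPM in Chd8-/- libraries. The WT libraries differed by a few TPM, Chd8-/- replicate 1 was above them and replicate 2 just below, so that the genotypes overlapped. On the log2 scale the difference was 0.22 (SE 0.25, 95% interval −0.44 to 0.89, adjusted p = 0.781 from limma), and without Chd8-/- replicate 1 it was −0.06. Cd3g, encoding the γ chain, was listed at 836.0 and 802.9 TPM in WT and at 1014.3 and 623.7 TPM in Chd8-/- libraries. It had the same order as Cd3d, with Chd8-/- replicate 1 highest and replicate 2 lowest and the WT libraries between them. The difference on the log2 scale was −0.04 (SE 0.28, 95% interval −0.79 to 0.70, adjusted p = 0.970 from limma), and without Chd8-/- replicate 2 it was 0.31.

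The proportions among the CD3 genes were close in the WT libraries and less so in the Chd8-/- libraries. The level of Cd3d divided by that of Cd3e was 0.230 in both WT libraries, 0.386 in Chd8-/- replicate 1 and 0.267 in replicate 2, above WT in both. For Cd3g divided by Cd3e the values were 0.540, 0.526, 0.775 and 0.492 in the same order, which overlapped between genotypes. For the divergent neighbours Cd3d and Cd3g the ratio was 0.425 and 0.438 in WT and 0.498 and 0.542 in Chd8-/- libraries. This ratio was higher in both Chd8-/- libraries, although each of the 2 genes overlapped between genotypes. No test was made of the ratios, and how often other gene pairs separate in this way was not counted. Among single genes, 42.6% of those tested did not overlap between genotypes.

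Cd247, encoding the ζ chain, had the lowest level among the receptor chain genes and the largest difference among the 9 genes. It was listed at 52.8 and 54.0 TPM in WT and at 42.2 and 21.3 TPM in Chd8-/- libraries. Both Chd8-/- libraries were below both WT libraries, and they lay 0.95 apart on the log2 scale, further than from WT in the case of replicate 1. The log2 fold change was −0.81 (SE 0.39, 95% interval −1.85 to 0.23, adjusted p = 0.562 from limma), made up of −0.33 in Chd8-/- replicate 1 and −1.29 in replicate 2. Without Chd8-/- replicate 1 Cd247 was the only member past a log2 fold change of 1, with an adjusted p of 0.204 from limma, and without replicate 2 the adjusted p from limma was 0.599. The level of Cd3e divided by that of Cd247 was 29.3 and 28.3 in WT, 31.0 in Chd8-/- replicate 1 and 59.5 in replicate 2, so that the proportion of these chains at the RNA level departed from WT mainly in replicate 2.

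Overlapping annotation limits what the Cd247 value holds. Of its 6260 exonic bases in GRCm38.p6, 2918 (46.6%) are shared with Pou2f1, the gene of the transcription factor OCT1, on the opposite strand, and whether strand was used in counting is not given in the sources used here. Pou2f1 was listed at 12.1 and 13.5 TPM in WT and at 8.9 and 7.1 TPM in Chd8-/- libraries. It was lower in both Chd8-/- libraries, as Cd247 was. How far reads of Pou2f1 enter the level of Cd247 was not tested. A lncRNA in the introns of Cd247 on the opposite strand, Gm32999, shares 0 exonic bases with it. Gm32999 was listed at 25.1, 26.0, 9.4 and 9.3 TPM, also lower in both Chd8-/- libraries. The smaller overlaps were 25 exonic bases of Lck with the microRNA gene Mir8119 on the same strand and 88 of Lcp2 with the antisense lncRNA 4930469K13Rik. Mir8119 was listed at 387.7 and 419.6 TPM in WT and at 572.3 and 508.4 TPM in Chd8-/- libraries, opposite in direction to Lck. 4930469K13Rik was listed at 16.3, 18.2, 12.6 and 10.3 TPM in the same order, opposite in direction to Lcp2.

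The 4 receptor chain genes together amounted to 2792.1 and 2736.3 TPM in WT and to 2871.2 and 2250.4 TPM in Chd8-/- libraries. The sum overlapped between genotypes, with Chd8-/- replicate 1 above the WT libraries and replicate 2 below them. Over all 9 genes the sums were 4146.9 and 4137.1 TPM in WT and 4311.5 and 3702.2 TPM in Chd8-/- libraries, in the same order.

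**Figure D2:**
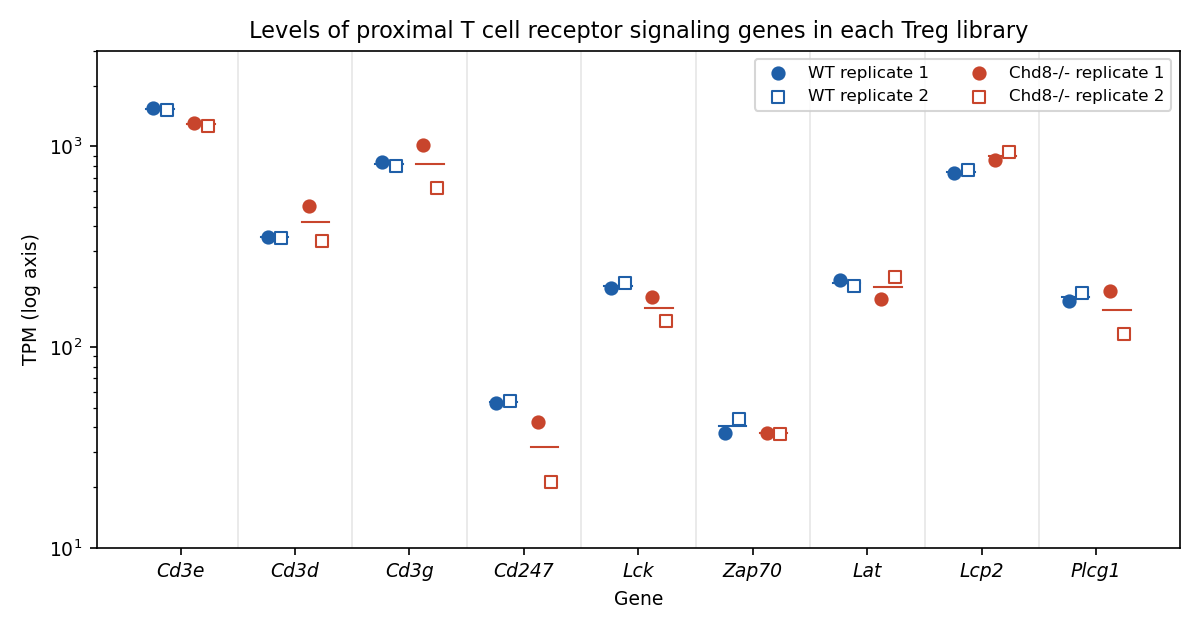
Level in TPM (log axis) of the 9 proximal T cell receptor signaling genes in each Treg library, 1 point per library (blue WT, red Chd8-/-, filled circles replicate 1, open squares replicate 2), with a line at the mean of each genotype. The WT points nearly coincide for most genes, and the Chd8-/- points are spread most for Cd247 (42.2 and 21.3 TPM), Plcg1 (190.7 and 115.9 TPM), Cd3g (1014.3 and 623.7 TPM) and Cd3d (505.2 and 338.2 TPM).

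Of the kinase genes, Lck was lower in both Chd8-/- libraries and Zap70 overlapped. Lck was listed at 196.4 and 207.7 TPM in WT and at 177.9 and 135.3 TPM in Chd8-/- libraries. Both Chd8-/- libraries were below both WT libraries, with replicate 2 the lower. Lck had a log2 fold change of −0.38 (SE 0.21, 95% interval −0.95 to 0.19, adjusted p = 0.603 from limma), or −0.18 in Chd8-/- replicate 1 and −0.57 in replicate 2. Zap70 was listed at 37.2 and 44.1 TPM in WT and at 37.3 and 37.1 TPM in Chd8-/- libraries. The Chd8-/- libraries were nearly equal and lay at the level of WT replicate 1. Its log2 fold change was −0.12 (SE 0.23, 95% interval −0.74 to 0.50, adjusted p = 0.877 from limma), and the difference from the WT mean was −0.12 in each Chd8-/- library. Zap70 was the only member in which the WT libraries lay further apart than the Chd8-/- libraries. The level of Zap70 divided by that of Lck was 0.189 and 0.212 in WT, 0.210 in Chd8-/- replicate 1 and 0.274 in replicate 2, so that only the latter lay outside the WT range.

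The adaptor genes differed from each other in direction. Lat, the membrane scaffold, was listed at 215.6 and 202.0 TPM in WT and at 174.5 and 223.1 TPM in Chd8-/- libraries. The Chd8-/- libraries lay on either side of the WT pair. The log2 fold change was −0.08 (SE 0.20, 95% interval −0.62 to 0.46, adjusted p = 0.909 from limma), with −0.26 in Chd8-/- replicate 1 and 0.10 in replicate 2, the reverse of the order seen for Cd3d, Cd3g and Plcg1. Lcp2, encoding SLP76, was listed at 735.6 and 761.3 TPM in WT and at 859.9 and 940.4 TPM in Chd8-/- libraries. It was the only member with both Chd8-/- libraries above both WT libraries. The mean was 1.20-fold that of WT in Chd8-/- Tregs, with a log2 fold change of 0.26 (SE 0.15, 95% interval −0.13 to 0.66, adjusted p = 0.601 from limma). The difference of Lcp2 from the WT mean was 0.20 in Chd8-/- replicate 1 and 0.33 in replicate 2. Lcp2 is also expressed in myeloid cells and platelets, and the part of such cells in its level was not tested. The level of Lcp2 divided by that of Lat was 3.41 and 3.77 in WT and 4.93 and 4.22 in Chd8-/- libraries. This ratio was higher in both Chd8-/- libraries and was not tested.

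Plcg1, encoding phospholipase Cγ1, was listed at 170.0 and 185.7 TPM in WT and at 190.7 and 115.9 TPM in Chd8-/- libraries. Chd8-/- replicate 1 was just above the WT pair and replicate 2 well below it. The log2 fold change was −0.26 (SE 0.30, 95% interval −1.05 to 0.54, adjusted p = 0.792 from limma), and it was 0.10 with Chd8-/- replicate 1 alone and −0.61 with replicate 2 alone.

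Of the 9 genes, 0 were called at an adjusted p of 0.05 in limma, against 0% of all genes tested, and the smallest adjusted p among them was 0.562. Even at an unadjusted p of 0.05 there were 0 members, against 10.2% of all genes. No member had a log2 fold change of 1 or more in either direction (0 of 9, against 16.7% of all genes, with 5.12% higher and 11.6% lower). These shares cover tested genes of every level, not a set matched to the members by level. Lcp2 had both Chd8-/- libraries above both WT libraries (1 of 9, against 14.8% of all genes), and Cd3e, Cd247 and Lck had both below (3 of 9, against 27.8% of all genes). In both directions together these were 4 of 9 or 44.4%, near the 42.6% of all genes. The intervals of all 9 members still include log2 differences of 0.5 in size, so that the absence of a call does not show equal levels.

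The median log2 fold change of the 9 genes was −0.12, with 2 above 0 and 7 below, beside a median of −0.15 over all genes tested. Relative to that median, 5 members were higher and 4 lower, and the values ran from −0.66 for Cd247 to 0.41 for Lcp2. For Cd3e the relative value was −0.11 and for Lck −0.23, while Zap70 (0.03), Lat (0.07) and Cd3g (0.11) were above the median of all genes.

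**Figure D3:**
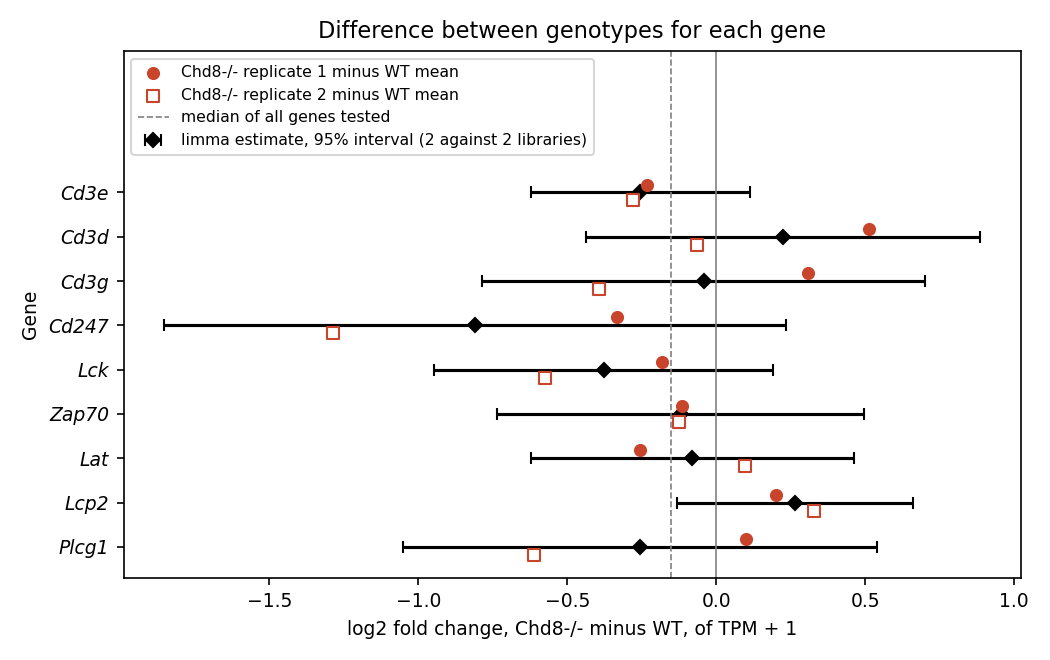
log2 fold change of TPM + 1, Chd8-/- minus WT, for each of the 9 genes (x axis), with the limma estimate and its 95% interval (black, 2 against 2 libraries) and the difference of each Chd8-/- library from the WT mean (red circles replicate 1, open squares replicate 2). Every interval includes 0, the solid line, and the estimates run from −0.81 for Cd247 to 0.26 for Lcp2 around the median of all genes at −0.15 (dashed line).

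The WT libraries lay close together in most members and the Chd8-/- libraries further apart. On the log2 scale the Chd8-/- libraries differed by a median of 0.392 over the 9 genes and the WT libraries by 0.0582, beside 0.521 and 0.322 over all genes tested. All genes tested include genes of lower level than any member, and no set matched by level was compared. The Chd8-/- pair lay further apart than the WT pair in 8 of 9 members, against 64.1% of all genes. Chd8-/- replicate 2 was below replicate 1 in 7 of 9 members, all but Lat and Lcp2, against 61.3% of all genes. Set against the shared WT mean, the 2 Chd8-/- libraries had the same sign in 5 members, with Cd3e, Cd247, Lck and Zap70 lower and Lcp2 higher in both. They had opposite signs in the other 4, which were Cd3d, Cd3g, Lat and Plcg1. The same sign was thus found in 55.6% of the members, beside 63.1% of all genes tested.

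The mean profile of the 9 genes, each centred on its own mean log2 level, was 0.06 and 0.10 in the WT libraries, 0.08 in Chd8-/- replicate 1 and −0.24 in replicate 2. Among 6133 other tested genes with a mean level of at least 20 TPM, the nearest to this profile over the 4 libraries were Gimap5 (root mean square distance 0.0147), Msn (0.0171), H2-Q4 (0.0184), Bnip3l (0.0245) and Itgb1 (0.0248). Gimap5, a GTPase of lymphocytes, was listed at 38.2 and 39.5 TPM in WT and at 39.8 and 30.9 TPM in Chd8-/- libraries. Msn, encoding the membrane-cytoskeleton linker moesin, was listed at 1105.8, 1156.2, 1153.1 and 922.5 TPM in the same order. Like the mean of the members, these genes were level in 3 libraries and lower in Chd8-/- replicate 2. With 4 libraries such likeness is a description only.

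The wider pathway was described with 5 lists of 85 genes in all, of which 82 were tested. The remaining 3, Trac, Trbc1 and Trbc2, encode the constant regions of the antigen-binding chains and have no row in the table used. None of the 82 was called in limma (0 genes, smallest adjusted p = 0.427), and 6, all of them lower in Chd8-/- Tregs, had an unadjusted p under 0.05, or 7.32% beside 10.2% of all genes tested. The median log2 fold change was −0.21, with 25 genes above 0 and 57 below. Both Chd8-/- libraries were above both WT libraries in 8 genes (9.76%, against 14.8% of all genes) and below in 31 (37.8%, against 27.8% of all genes). Past a fold of 2 were 2 genes in the higher direction (2.44%, against 5.12% of all genes) and 4 in the lower (4.88%, against 11.6%). These counts depended on single libraries, with 5 higher and 3 lower without Chd8-/- replicate 1, and 0 higher and 10 lower without replicate 2. Over all genes the shares were then 8.99% higher and 20.4% lower, and 6.49% higher and 9.49% lower. The 82 genes include 13 counterparts in B cells, NK cells and myeloid cells. With all 4 libraries, these held 1 of the genes past a fold of 2 higher and 2 of those lower. Of the counterparts, 1 was above WT and 1 below in both Chd8-/- libraries (15.4% without overlap, against 42.6% of all genes). The pooled shares thus do not describe the T cell lists alone.

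Of the coreceptor and costimulatory genes, 5 were tested, with a median of −0.21. Cd4, the coreceptor that brings LCK to the receptor, was listed at 403.4 and 431.8 TPM in WT and at 326.2 and 323.6 TPM in Chd8-/- libraries. Both Chd8-/- libraries were nearly equal and below WT, as for Cd3e, with a log2 fold change of −0.36 (SE 0.15, adjusted p = 0.526 from limma). Cd2, an adhesion receptor, was listed at 1077.3 and 914.4 TPM in WT and at 1496.4 and 1222.2 TPM in Chd8-/- libraries, above WT in both (log2 fold change 0.45, SE 0.19, adjusted p = 0.525 from limma). Cd28, the costimulatory receptor, was listed at 447.8, 522.7, 527.1 and 264.0 TPM. Its low value in Chd8-/- replicate 2 alone put it with Plcg1 and Cd3g, at a log2 fold change of −0.37. Cd6, a scavenger receptor of T cells, had a log2 fold change of −0.07.

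The list of kinases and their regulators held 21 tested genes, with a median of −0.20, 3 genes above WT and 9 below in both Chd8-/- libraries (14.8% and 27.8% of all genes). Fyn, the other Src family kinase of T cells, was listed at 67.9 and 78.2 TPM in WT and at 69.7 and 75.2 TPM in Chd8-/- libraries. Unlike Lck it overlapped between genotypes, with a log2 fold change of −0.01, which became 0.02 after quantile normalization. Csk, the kinase that inhibits LCK, was listed at 28.1 and 39.2 TPM in WT and at 24.3 and 26.8 TPM in Chd8-/- libraries. It was lower in both Chd8-/- libraries, but the WT libraries differed by more than the gap between genotypes, and the log2 fold change of −0.37 (SE 0.28) was −0.60 without WT replicate 1 and −0.13 without WT replicate 2. Ptprc, encoding the phosphatase CD45 that keeps LCK active, overlapped at −0.14. The largest differences were those of Txk, a TEC family kinase, and Ubash3b, a phosphatase that restrains ZAP70. Txk was listed at 21.7 and 21.0 TPM in WT and at 9.2 and 5.2 TPM in Chd8-/- libraries (log2 fold change −1.49, SE 0.38, adjusted p = 0.430 from limma). Ubash3b was listed at 26.2 and 36.9 TPM in WT and at 12.3 and 14.4 TPM in Chd8-/- libraries (log2 fold change −1.17, SE 0.31, adjusted p = 0.433 from limma). Both genes lay past a fold of 2 in the lower direction, as 11.6% of all genes did. The highest values were those of Dok2 and Sla, encoding adaptors that dampen the signal, both above WT in both Chd8-/- libraries. Dok2 was listed at 18.6, 13.6, 19.9 and 20.4 TPM, with a log2 fold change of 0.32 that ran from 0.11 to 0.53 with a library left out. Sla was listed at 69.8, 72.0, 94.1 and 80.3 TPM, with a log2 fold change of 0.29.

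Among 18 adaptors and exchange factors the median was −0.27, with 2 genes above WT and 9 below in both Chd8-/- libraries (14.8% and 27.8% of all genes). Grap2, encoding the adaptor GADS that ties SLP76 to LAT, was listed at 103.3 and 107.3 TPM in WT and at 63.9 and 56.6 TPM in Chd8-/- libraries. Both Chd8-/- libraries were well below WT and near each other, while neither partner gene, Lat or Lcp2, was lower in both. Grap2 had a log2 fold change of −0.80 (SE 0.19, adjusted p = 0.427 from limma), the smallest adjusted p of the wider lists. Trat1, encoding an adaptor that binds the receptor complex, was listed at 45.5 and 57.9 TPM in WT and at 83.3 and 63.9 TPM in Chd8-/- libraries, above WT in both (log2 fold change 0.50, SE 0.26). Gab2 had a log2 fold change of −0.57 at levels of 1.1 to 2.7 TPM, and Shb one of 1.16, which rests on 6.8 TPM in Chd8-/- replicate 2 against 0.7 to 1.4 TPM in the other libraries.

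The 25 genes of the branches below phospholipase Cγ1 had a median of −0.21, with 1 gene above WT and 11 below in both Chd8-/- libraries (14.8% and 27.8% of all genes). Prkcq, encoding protein kinase C-θ of the NF-κB branch, was listed at 120.9 and 140.2 TPM in WT and at 86.8 and 89.3 TPM in Chd8-/- libraries (log2 fold change −0.56, SE 0.19, adjusted p = 0.471 from limma). Itpkb, encoding a kinase that removes the second messenger inositol trisphosphate, was listed at 90.3 and 87.7 TPM in WT and at 61.6 and 50.4 TPM in Chd8-/- libraries (log2 fold change −0.67, SE 0.21, adjusted p = 0.461 from limma). In both genes the Chd8-/- libraries were below WT by more than they differed from each other. Stim2, a calcium sensor of the endoplasmic reticulum, was listed at 62.0, 61.1, 53.2 and 30.4 TPM (log2 fold change −0.60). It resembled Cd247 in that replicate 2 made up most of the difference. Bcl10 (0.19) and Itpr1 (0.29) had the highest values of this list, and only Itpr1, at 3.2 to 4.9 TPM, did not overlap between genotypes.

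The counterparts of the pathway in B cells, NK cells and myeloid cells were spread widely between the Chd8-/- libraries, by a median of 1.93 on the log2 scale, and so were the sums of the B cell and myeloid markers, but not that of the NK cell markers (4.3 and 6.7 TPM). Of 13 such genes, Chd8-/- replicate 2 was below replicate 1 in 1 gene, against 7 of 9 proximal members. Cd79a, the B cell receptor signaling chain, was listed at 21.8 and 10.1 TPM in WT and at 17.8 and 73.7 TPM in Chd8-/- libraries. Fcer1g, the Fc receptor γ chain that is related to the ζ chain, was listed at 64.4, 104.3, 0 and 161.5 TPM, and Tyrobp, encoding DAP12, at 135.2, 184.5, 29.5 and 128.4 TPM. Syk, the relative of ZAP70 in those cells, was listed at 0.5 to 4.7 TPM and Plcg2 at 0 to 3.8 TPM, far below Zap70 and Plcg1 in every library. The largest differences among these counterparts lay within the Chd8-/- pair, and their part in the levels of the proximal members was not tested.

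**Figure D4:**
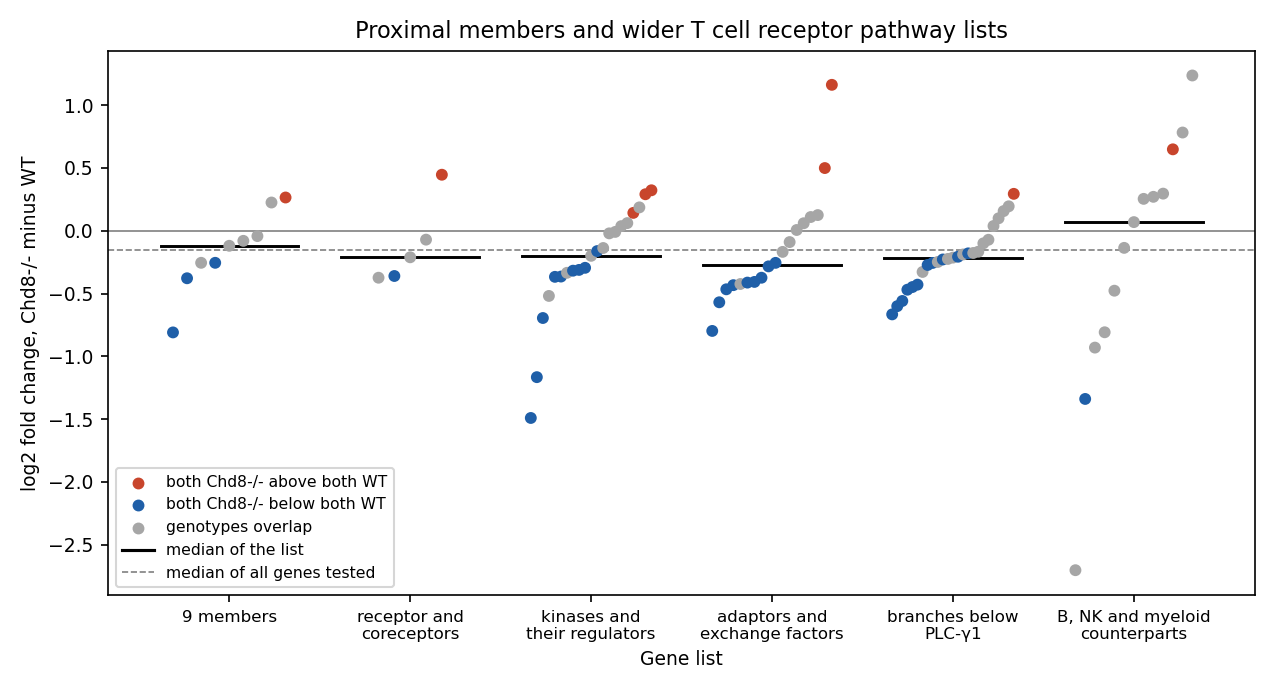
log2 fold change, Chd8-/- minus WT (y axis), of the 9 proximal members and of the tested genes of the 5 wider lists, 1 point per gene (red both Chd8-/- libraries above both WT libraries, blue both below, grey overlapping), with the median of each list (black line) and of all genes tested (dashed, −0.15). The list medians lie between −0.27 for adaptors and 0.07 for the B, NK and myeloid counterparts, and the widest scatter is that of the counterparts.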

How the data were processed

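RNA-seq of YFP+ Tregs of 2 WT and 2 Chd8-/- mice was analysed. The authors trimmed the reads (Trim Galore 0.4.2, cutadapt 1.9.1), aligned them to mm10 with STAR 2.6.1e, removed duplicates, counted RefSeq genes with featureCounts 1.6.2 and deposited TPM, rounded to 0.1. The methods name both a 3′ single cell assay and an Illumina kit, so that the coverage along genes, on which scaling by length depends, is uncertain. The depth is unknown, and no counting interval is given. Of 35869 names listed, 4 entries under repeated names were left out. Values were analysed as log2(TPM + 1) with limma (version 3.58.1, R 4.3.3), using lmFit, a mean-variance trend in eBayes and 95% intervals from the moderated fit, after a check on simulated data. Tables and figures were made with Python 3.11.15, pandas 2.3.3 and matplotlib 3.10.9. Members and lists were chosen with earlier results of these data known. Besides members, the 2 highest and 2 lowest genes of each wider list by log2 fold change, and 11 fixed genes, were named, together with the 5 genes of nearest profile at a mean of at least 20 TPM, and 2 genes that this rule names are not reported here. Positions are RefSeq annotation of GRCm38.p6, the build of mm10. Same-numbered libraries did not deviate together (correlation −0.01 over genes), and the numbers were not treated as pairs. ATAC-seq and CHIP-seq tables, on mm39, were not analysed here. The alternatives changed the pseudocount (0.1 or 5 TPM), the filter (none, or a mean of 5 TPM), the scaling (quantile normalization), the model (replicate block, or no trend in eBayes) and the libraries (each left out in turn).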

Additional observations from a re-analysis of the deposited data

How the results depend on the processing

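No member was called under any of the 11 alternatives (0 genes in limma), and the median of the members stayed between −0.28 and −0.11. Quantile normalization moved the median of all genes from −0.15 to 0.00 and that of the members to −0.16. No member changed its direction with another pseudocount, filter, normalization or moderation. A mean TPM of at least 5 gave 2 called genes, none of them members. With the replicate block 0 members were called and the adjusted p of Cd247 in limma was 0.642. When a library was left out, the lone one was assumed to vary like the other genotype. The number of members past a fold of 2 then ran from 0 to 1, and that of members without overlap from 4 to 9. A lone library separates more easily, so the shares of all genes rose as well. Without WT replicate 1 there were 5 such members and without WT replicate 2 there were 4, beside 65.2% and 64.6% of all genes. Without Chd8-/- replicate 1 there were 9 and without Chd8-/- replicate 2 there were 8, beside 80.7% and 71.2% of all genes. Members with an unadjusted p under 0.05 numbered 4 and 1 in these settings, beside 20.9% and 9.88% of all genes. The ranges with a library left out crossed 0 for Cd3d (−0.064 to 0.51), Cd3g (−0.39 to 0.31), Lat (−0.26 to 0.10) and Plcg1 (−0.61 to 0.10). Among other named genes they crossed 0 for Fyn (−0.11 to 0.091), Bcl10 (−0.27 to 0.66), Cd28 (−0.87 to 0.12), Ptprc (−0.28 to 0.0056), Plcg2 (−1.73 to 0.12), Syk (−0.69 to 1.23) and Fcer1g (−6.37 to 0.97), and Fyn was also at 0.022 after quantile normalization. The causes were not tested. The planned comparison of ATAC and CHIP peaks at the members was not run, since gene positions of mm39 were not used here.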
